A study of Mus musculus with 4 samples.

Results

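Neurog1, Neurog2, Neurod1, Neurod4, Nhlh1, Nhlh2 and Insm1 are transcription factors that start neurogenesis or are switched on in young neurons. These 7 genes were chosen by name for that role, with earlier results of these data known. All 7 are among the 55602 genes of the deposited count table. The first 6 are basic helix-loop-helix (bHLH) factors. Insm1 is a zinc finger factor without a bHLH domain, so the name "proneural bHLH factors" does not cover it. RNA was measured in 2 wild-type and 2 Zfp57-/- cultures of JB1, a male hybrid line of embryonic stem cells (ESCs) whose maternal genome is JF1 and whose paternal genome is C57BL/6 (B6). The mutant line was derived from JB1 and lacks ZFP57, a zinc finger protein that protects DNA methylation at imprinted control regions. All 4 cultures were grown as ESCs with 3 µM CHIR99021, a Gsk3 inhibitor, then differentiated by in vitro corticogenesis in a chemically defined medium. They received 1 µM cyclopamine, a Sonic hedgehog inhibitor, from day 2 to day 10, and were harvested at day 12. All 4 are labelled as neural progenitor cells (NPCs). The paper reports, however, that the mutant cells differentiated only partly, and it calls them neural precursor-like cells. The methods name 1 mutant line derived from JB1, so that in these libraries the genotype cannot be told apart from the line that carries it. The paper also differentiated a Zfp57 mutant of another, inbred ESC line, which is not among these libraries.

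In the developing nervous system, the neurogenins Neurog1 and Neurog2 commit progenitors to the neuronal fate. They bind E-box motifs as dimers with E proteins, and they activate NeuroD and NHLH genes as well as Notch ligands, through which the neighbouring cells are kept as progenitors by Hes repressors. Id proteins bind E proteins and thereby block the activators. Insm1 acts in the same window, in basal progenitors and newborn neurons.

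To show where such factors could be read at the sequence level, the bases upstream of the transcription start were taken from RefSeq (GRCm38.p6) for the neurogenins, which stand at the head of the cascade, and for the NHLH genes, which had the largest difference between genotypes. RefSeq windows were found for 6 of the 7 genes, with 2 windows for Neurod4. Each sequence is given 5′ to 3′ on the strand of the gene, with every E-box (CANNTG) in capitals. Bases inside the GENCODE gene model were left out, which removed 69 of the 250 bases for Nhlh2 and 1 for Neurog2.
Neurog1, chr13:56252181-56252430 (minus strand): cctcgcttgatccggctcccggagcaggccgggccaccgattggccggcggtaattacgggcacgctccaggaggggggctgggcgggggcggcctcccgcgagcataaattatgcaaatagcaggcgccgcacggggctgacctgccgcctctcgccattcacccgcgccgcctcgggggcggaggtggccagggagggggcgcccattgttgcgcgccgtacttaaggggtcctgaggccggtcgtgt
Neurog2, chr3:127632886-127633134 (plus strand): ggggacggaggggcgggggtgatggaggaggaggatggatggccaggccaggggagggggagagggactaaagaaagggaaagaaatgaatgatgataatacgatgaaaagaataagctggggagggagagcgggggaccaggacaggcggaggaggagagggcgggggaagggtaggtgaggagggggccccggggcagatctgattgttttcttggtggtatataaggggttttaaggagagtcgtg
Nhlh1, chr1:172057597-172057846 (minus strand): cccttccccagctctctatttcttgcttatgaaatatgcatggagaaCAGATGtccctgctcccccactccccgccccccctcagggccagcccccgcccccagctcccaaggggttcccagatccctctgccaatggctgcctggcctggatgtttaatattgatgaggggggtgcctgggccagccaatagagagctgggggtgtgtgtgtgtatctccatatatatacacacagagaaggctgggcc
Nhlh2, chr3:102009895-102010075 (plus strand): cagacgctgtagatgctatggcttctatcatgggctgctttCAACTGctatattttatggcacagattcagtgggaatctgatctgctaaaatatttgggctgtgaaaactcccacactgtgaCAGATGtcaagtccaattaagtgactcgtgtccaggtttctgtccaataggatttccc

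Neither neurogenin held CANNTG in its 250 bases, whereas Nhlh1 held 1 and Nhlh2 held 2. CANNTG reads alike on both strands and was present in 66.2% of the 32851 RefSeq windows of this length. The form CAGATG, which is 1 kind of CANNTG, began 203 bases before the start of Nhlh1 and 127 bases before that of Nhlh2, and in no window of another member. It was found on either strand in 14.4% of all windows. Neurod1 held 1 CANNTG, and Neurod4 held none in either window. The RBPJ-type letters TGGGAA were in the windows of Nhlh1 and Nhlh2 and in 21.6% of all windows, and CCAAT was in those of Neurog1, Nhlh1 and Nhlh2 and in 33.8% of all windows. The N-box letters CACNAG were in Nhlh2 and in both windows of Neurod4, against 36.7% of all windows. CAGCTG and TATAAA, searched on both strands, were in none of the member windows and in 13% and 12.4% of all windows. GC content of the 250 bases ranged from 42% for Nhlh2 to 71.2% for Neurog1, with a median of 52.4% over all windows. These matches describe letters only, and binding was not measured.

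Of the 7 genes, 6 were lower in Zfp57-/- cells, by 8.84-fold to 99.9-fold, and the exception was Neurod1. Read counts ranged from 38 to 1240 in the wild-type libraries and from 1 to 31 in the Zfp57-/- libraries. A gene was called different when its Benjamini-Hochberg adjusted p was under 0.05 in edgeR's quasi-likelihood test over all 19995 genes with more than 8 counts in the 4 libraries. By this rule 6 of 7 members were lower and 0 were higher, where 14.6% of all genes tested were lower and 13% were higher. In 7 of 7 members both Zfp57-/- libraries lay below both wild-type libraries, which held for 32.6% of all genes tested. The median log2 fold change was -4.33 over the members and -0.01 over all genes tested. Summed over the members, the normalised read count was 2100 and 2296 in the wild-type libraries and 97.0 and 90.4 in the Zfp57-/- libraries. Normalised read counts are the counts scaled to equal library size by the TMM method. The RNA came from whole cultures, so that fewer cells of a type and less RNA per cell cannot be told apart.

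**Figure D1:**
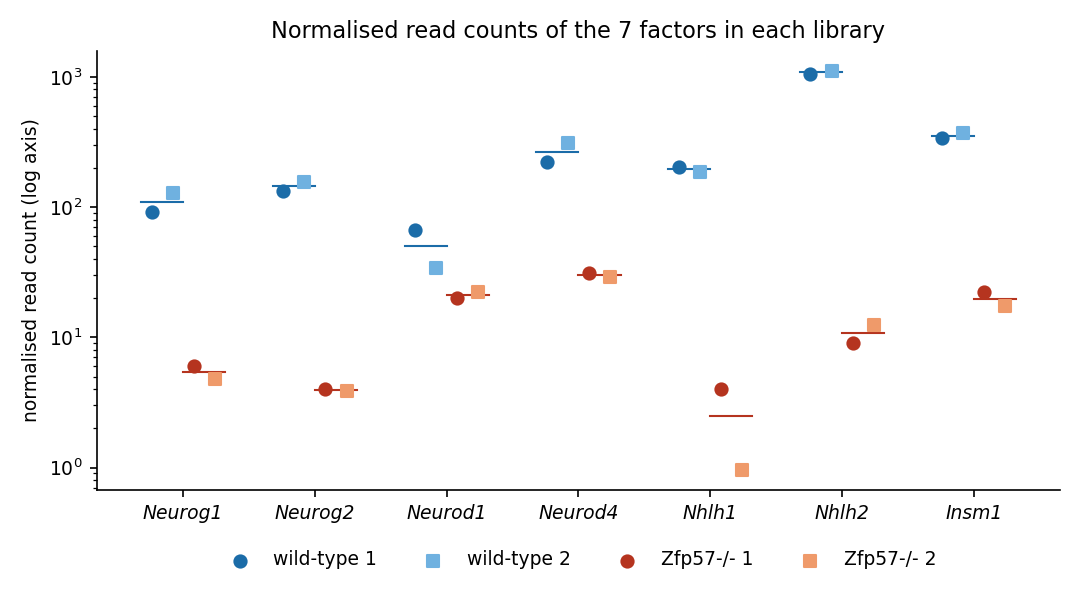
Normalised read count on a log axis for each of the 7 genes, with 1 point for each of the 2 wild-type (blue) and 2 Zfp57-/- (red and orange) libraries and a line at each genotype's mean. The red and orange points lie below the blue points for all 7 genes, and the gap is narrowest for Neurod1, at 34.1 in the lower wild-type and 22.1 in the higher Zfp57-/- library.

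The libraries held 7663520, 10225378, 9545119 and 10337082 counted fragments, for wild-type replicates 1 and 2 and Zfp57-/- replicates 1 and 2. The wild-type replicates differed from each other more than the mutant ones did in several neuronal genes, with Tubb3, a neuronal tubulin, at 2232 and 6073 counts. Zfp57 itself had 392 and 249 counts in the wild-type libraries and 158 and 144 in Zfp57-/- cells (log2 fold change -1.19, edgeR adjusted p = 0.0224), a call that was lost without Zfp57-/- replicate 2 (adjusted p = 0.0757). Its count covers the whole gene and not the deleted part alone. The wild-type libraries expressed the progenitor genes Pax6, Sox1 and Nes.

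The neurogenins nearly disappeared in the mutant. Neurog1 (ENSMUSG00000048904.5, GRCm38 chromosome 13, 56250478 to 56252163, minus strand) had 78 and 142 counts in the wild-type libraries and 6 and 5 counts in Zfp57-/- cells. Its normalised count was 109.3 ± 25.9 and 5.44 ± 0.885 (mean ± SD, n = 2 each). Both mutant libraries lay far below both wild-type ones, and wild-type replicate 2 was the highest. The difference was 20.2-fold (95% interval 9.61 to 42.4), with a log2 fold change of -4.33 ± 0.48 (SE) and an edgeR adjusted p of 0.000159. Neurog2 (ENSMUSG00000027967.8, chromosome 3, 127633135 to 127635631, plus strand), the neurogenin best known from the dorsal forebrain, had 113 and 174 counts in the wild-type libraries and 4 and 4 in Zfp57-/- cells. Its normalised count fell from 144.0 ± 17.4 to 3.94 ± 0.137, or to 2.74% of the wild-type mean. The groups did not overlap, and the log2 fold change was -5.19 ± 0.44 (edgeR adjusted p = 3.12e-05). The intervals of the 2 genes' log2 fold changes, -5.40 to -3.27 and -6.18 to -4.20, overlapped, and the difference between them was not tested.

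The NeuroD genes, which act in differentiating neurons after the neurogenins, did not move alike. Neurod4 (ENSMUSG00000048015.4, chromosome 10, 130268152 to 130280240, minus strand) had 191 and 343 counts in the wild-type libraries and 31 and 30 in Zfp57-/- cells. The mutant libraries were close to each other and below both wild-type libraries. Its normalised count of 265.4 ± 60.5 fell to 30.1 ± 1.74, a log2 fold change of -3.14 ± 0.30 (edgeR adjusted p = 6.44e-05). Neurod4 thus kept 11.3% of the wild-type level, the largest share among the 6 genes that were called.

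Neurod1 (ENSMUSG00000034701.9, chromosome 2, 79452521 to 79456751, minus strand), a neuronal differentiation factor that is also used by endocrine cells, was the weakest of the 7. Its counts were 57 and 38 in wild-type against 20 and 23 in Zfp57-/- cells. The groups did not overlap, but wild-type replicate 2 had 0.514 times the normalised count of replicate 1. Neurod1 was the only member where replicate 2 was at about this fraction of replicate 1, the other ratios being 0.927 to 1.40. The mean of 50.3 ± 22.8 stood against 21.2 ± 1.36, a log2 fold change of -1.24 ± 0.51 with an interval of -2.37 to -0.11. It did not pass the threshold (edgeR adjusted p = 0.0968, unadjusted p = 0.0350). Without wild-type replicate 2 the log2 fold change was -1.64 (adjusted p = 0.000789) and Neurod1 was called, and without wild-type replicate 1 it was -0.71 (adjusted p = 0.27).

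The NHLH factors, bHLH proteins of newly formed neurons, showed the largest differences. Nhlh2 (ENSMUSG00000048540.8, chromosome 3, 102010076 to 102015492, plus strand) had 901 and 1240 counts in the wild-type libraries and 9 and 13 in Zfp57-/- cells. All other members had fewer wild-type counts, and the replicates of each genotype were close. The mean normalised count of 1082 ± 45.3 fell to 10.8 ± 2.41, 99.9-fold lower (95% interval 65.0 to 153.6). The log2 fold change was -6.64 ± 0.28 (edgeR adjusted p = 1.69e-06), and by p it ranked 2 among all genes that were lower. Nhlh1 (ENSMUSG00000051251.3, chromosome 1, 172052292 to 172057573, minus strand) had 173 and 208 counts in the wild-type libraries and 4 and 1 in Zfp57-/- cells. Its normalised count fell from 194.3 ± 10.4 to 2.5 ± 2.18, a log2 fold change of -6.30 ± 0.50 (edgeR adjusted p = 1.94e-05). The mutant libraries were both near 0, so that the size of the difference rests on few reads. The log2 fold change was -7.66 without Zfp57-/- replicate 1 and -5.59 without Zfp57-/- replicate 2.

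Insm1 (ENSMUSG00000068154.5, chromosome 2, 146221921 to 146225020, plus strand), the zinc finger factor of basal progenitors and newborn neuronal and endocrine cells, had 289 and 410 counts in the wild-type libraries and 22 and 18 in Zfp57-/- cells. The groups were far apart, with replicates within each genotype close to each other. Its normalised count fell from 352.6 ± 22.3 to 19.8 ± 3.47, 17.9-fold, with a log2 fold change of -4.16 ± 0.29 (edgeR adjusted p = 1.01e-05). Over the 4 libraries Insm1 had the profile closest to the mean profile of the 7 genes, with a root mean square difference of 0.0652 in centred log2 CPM (CPM being counts scaled to a common library size). Neurod1 had the most distant one, at 1.54.

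**Figure D2:**
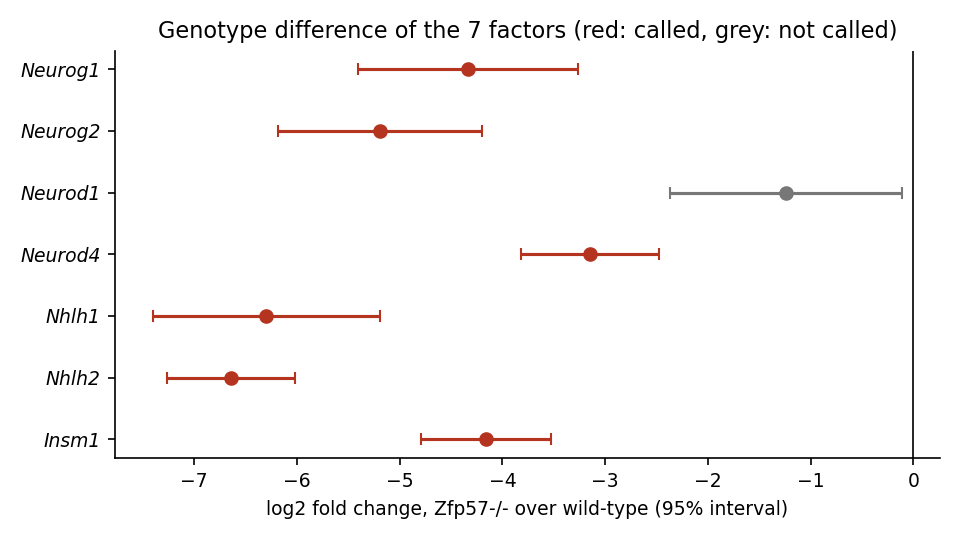
Log2 fold change of Zfp57-/- over wild-type cells for each of the 7 genes, with approximate 95% intervals derived from edgeR's F statistic. The 6 called genes (red) lie between -6.64 and -3.14, and Neurod1 (grey, not called) lies at -1.24 with an interval that ends at -0.11.

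Levels per length placed Nhlh2 first in wild-type cells, at 21.2 ± 0.888 CPM per kilobase of exon. Insm1 followed at 12.1 ± 0.765. Neurod4 at 8.42 ± 1.92, Nhlh1 at 8.37 ± 0.449, Neurog1 at 6.88 ± 1.63 and Neurog2 at 6.87 ± 0.831 came next. Replicates of Neurod4 and Nhlh1 overlapped, as did those of Neurog1 and Neurog2, while both replicates of Nhlh1 (8.69 and 8.05) lay above those of Neurog1 (5.72 and 8.03) and Neurog2 (6.28 and 7.45). Neurod1 was lowest, at 1.96 ± 0.888. Nhlh2 and Insm1 stood at the 89.1 and 78.8 percentiles of all genes tested, and Neurod1 at 41.1. In Zfp57-/- cells the order of these levels was another one. Neurod4 at 0.955 ± 0.0552, Neurod1 at 0.823 ± 0.0528 and Insm1 at 0.677 ± 0.119 CPM per kilobase were the highest, with replicate values of 0.994 and 0.916, of 0.786 and 0.861, and of 0.761 and 0.593. The replicates of these genes came close without overlapping, and their order rests on 18 to 31 counts a library. Nhlh2 was at 0.212 ± 0.0473 and Nhlh1 was lowest, at 0.108 ± 0.0938.

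The dimer partners and inhibitors of these factors were also lower, by smaller factors. Among the E proteins, Tcf12 had a log2 fold change of -1.40 ± 0.19 and Tcf4 of -1.13 ± 0.22 (edgeR adjusted p = 0.000496 and 0.00396), while Tcf3 was at -0.33 ± 0.21 and was not called (adjusted p = 0.285). Tcf4 was not called without Zfp57-/- replicate 1, and Tcf3 was called without wild-type replicate 1. The Id genes were lower in 4 of 4, at -2.05 for Id2, -1.59 for Id4, -1.30 for Id1 and -1.05 for Id3, with Id2 at 1535 and 1695 counts in the wild-type libraries and 376 and 438 in Zfp57-/- cells. Thus both the activators and their inhibitors were lower in the same libraries. The call of Id3 was lost without either Zfp57-/- replicate.

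Of the Hes and Hey repressors, the readout of Notch signalling, 3 of the 6 tested were lower and 0 were higher. Hes5 had 317 and 459 counts in the wild-type libraries and 12 and 10 in Zfp57-/- cells (log2 fold change -5.17 ± 0.30, edgeR adjusted p = 4.58e-06). Heyl had 26 and 33 counts against 0 and 2, and Hey1 was at -0.94 on the log2 scale (adjusted p = 0.0384), a call that was lost without either Zfp57-/- replicate. Hes1, which is also expressed outside the nervous system, was not called, with a log2 fold change of 0.07 ± 0.20, and Hes3 and Hey2 were not called at 0.13 and -0.67. Hes7 had at most 1 count in a library and was not tested.

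Other neural bHLH activators split in direction. Of the 15 genes listed, 11 passed the filter on low counts, 6 were lower and 2 were higher. Atoh1, a factor of the dorsal hindbrain and spinal cord, had 270 and 423 counts in the wild-type libraries against 0 and 2 in the mutant ones. Ptf1a had 34 and 23 against 0 and 0, at least 10.2-fold lower when 3 counts are allowed in each Zfp57-/- library, and Olig3, Tal2 and Neurod6 were also lower. Neurod6 had only 6 and 5 counts in the wild-type libraries and was not called by DESeq2. In the other direction, Olig1 had 14 and 18 counts in the wild-type libraries and 69 and 82 in Zfp57-/- cells, and Olig2, a factor of motor neuron and oligodendrocyte progenitors, had 18 and 19 against 59 and 67. Their log2 fold changes were 2.19 and 1.71 (edgeR adjusted p = 0.00439 and 0.0174), and both calls were lost with Actb as the scale and without Zfp57-/- replicate 2, that of Olig2 also without Zfp57-/- replicate 1. Neurog3, Neurod2, Atoh7 and Ferd3l had too few counts to be tested.

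Known downstream genes of the proneural factors were mostly lower, with 11 lower and 2 higher of the 15 tested and a median log2 fold change of -2.15. Dcx, a microtubule protein of migrating neurons, had 1795 and 2663 counts in the wild-type libraries and 24 and 29 in the mutant (log2 fold change -6.43). St18, a zinc finger factor of newborn neurons, was at -5.19, and the Notch ligands Dll1 and Dll3 were at -2.67 and -2.25. The smallest of the 11 was Hes6, at -0.79, whose call was lost without either Zfp57-/- replicate. Eomes, a T-box factor of cortical basal progenitors that is also expressed in early mesoderm and endoderm, went the other way, with 13 and 7 counts in the wild-type libraries and 329 and 433 in Zfp57-/- cells (log2 fold change 5.18 ± 0.38, edgeR adjusted p = 1.40e-05, and 5.87 without wild-type replicate 1). Btg2, an antiproliferative gene, was higher by 0.67 (adjusted p = 0.0283), a call that was lost without either Zfp57-/- replicate and with Actb as the scale, where its sign turned (-0.02). Tbr1 and Gadd45g were not called, at -1.45 and -0.78. Gadd45g was called lower with upper-quartile in place of TMM scaling and without a filter on low counts (edgeR adjusted p = 0.0457 and 0.0139).

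Neuron-specific genes were lower in 13 of 14, with a median log2 fold change of -2.93. Rbfox3, the neuronal nuclear antigen NeuN, and Map2, a dendritic microtubule protein, were at -4.28 and -4.23, and the neurofilament genes Ina and Nefl were the least lowered of the 13, at -2.06 and -2.37, with Ina at -1.46 without wild-type replicate 2. Stmn2 was not called, with 758 and 1561 counts in the wild-type libraries and 902 and 671 in Zfp57-/- cells. Without a filter on low counts it was called lower (log2 fold change -0.56, edgeR adjusted p = 0.0483). With a term for the replicate number, all 14 were called lower. Progenitor genes were lower in 9 of 11, by a median of -1.51 on the log2 scale. Hes5 and Pax6, at -5.17 and -3.04, were the most lowered, Nes and Notch1, at -0.91 and -1.35, the least, and Sox2 and Vim were not called, at 0.49 and -0.25. The call of Nes was lost without either Zfp57-/- replicate.

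**Figure D3:**
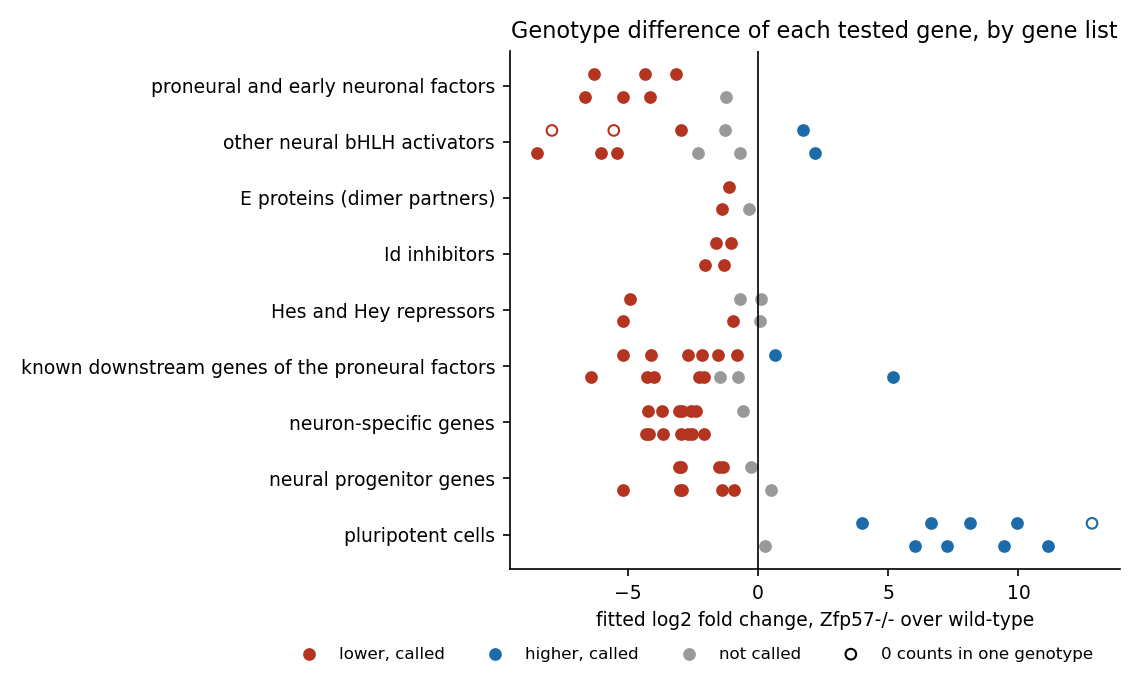
Fitted log2 fold change of Zfp57-/- over wild-type cells for each tested gene of the members and of 8 gene lists, 1 point a gene, coloured by the call, with open circles for genes at 0 counts in both libraries of a genotype, whose fitted value is no bound. Points of the activators, their downstream genes and neuronal genes lie mostly left of 0, while 9 of the 10 pluripotency genes lie to the right as called, from 4.01 upwards.

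Markers of other cell types moved with the genotype as well. Of 10 genes of pluripotent cells, 9 were higher in Zfp57-/- cells, and their summed normalised count was 684 and 1375 in wild-type against 16389 and 15109 in Zfp57-/- libraries. Nanog had 0 and 0 counts in the wild-type libraries and 903 and 938 in Zfp57-/- cells, at least 293-fold higher when 3 counts are allowed in each wild-type library. Tdgf1 had 0 and 2 against 2301 and 2301, and the smallest called differences were those of Zfp42 and Tfcp2l1, at 4.01 and 6.02. Zfp42 was at 3.35 without wild-type replicate 1 and at 5.47 without wild-type replicate 2. Klf4, at 500 and 1404 counts in wild-type, was not called and made up most of the wild-type sum. The counts compare whole cultures of the genotypes at day 12 and do not show whether pluripotent cells were present. The paper reports that Nanog and Pou5f1 fell during differentiation in wild-type and mutant cells alike. From antibody staining at day 12, it reports that Pou5f1 had gone down in every cell of either genotype. Whether the higher level of these genes is tied to the lower level of the 7 factors was not tested.

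The germ layer lists differed less. Of the endoderm genes, Dab2 was higher (log2 fold change 1.17) and Sox7 lower (-0.98), and 6 of 8 were not called. The call of Sox7 was lost without either Zfp57-/- replicate and with Actb as the scale, and that of Dab2 with Actb and without Zfp57-/- replicate 2. The summed endoderm count was 4060 and 6397 in wild-type and 6677 and 9102 in Zfp57-/- libraries, and the number of endoderm genes called higher was 5 without wild-type replicate 2 and 0 with Actb as the scale. Of the mesoderm and endothelium genes, T, Pecam1 and Meox1 were higher (2.27, 2.08 and 1.27) and Kdr lower (-1.67) of 7 tested, with a sum of 913 and 1154 against 1837 and 1983. Mesp1 had at most 1 count. Only T of the 3 higher genes was still called with Actb as the scale. The call of Meox1 was also lost with DESeq2 size factors, with edgeR's stricter filter on low counts and without Zfp57-/- replicate 1, and that of Pecam1 without Zfp57-/- replicate 1. Without wild-type replicate 1, Kdr was at -0.66 and Pecam1 at 3.57, and without wild-type replicate 2, Kdr was at -2.28, Pecam1 at 1.31, T at 2.99 and Meox1 at 2.27.

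Neurogenins and NeuroD genes are also expressed in cranial sensory neurons and in the endocrine pancreas. Of the neural crest, placode and sensory neuron genes, 5 of 10 were lower and 2 higher, and their sum was 1072 and 1176 in wild-type and 830 and 801 in Zfp57-/- libraries. Pou4f1, a sensory neuron factor, was at -3.36, whereas Foxd3 and Prph were at 3.58 and 3.07. Sox10, the defining crest gene, had 2, 12, 6 and 7 counts. Of the endocrine pancreas genes, 4 of 9 were tested. Pdx1, Neurog3, Nkx2-2, Ins1 and Ins2 had at most 2 counts in any library, and Sst, which neurons also express, was the 1 gene called, at 47 and 105 counts against 5 and 0. Of the dorsal telencephalon genes, Lhx2 had 297 and 206 counts in the wild-type libraries and 0 and 4 in Zfp57-/- cells, while Emx1, Emx2, Tbr1, Neurod2 and Neurod6 had at most 24 counts in any library.

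**Figure D4:**
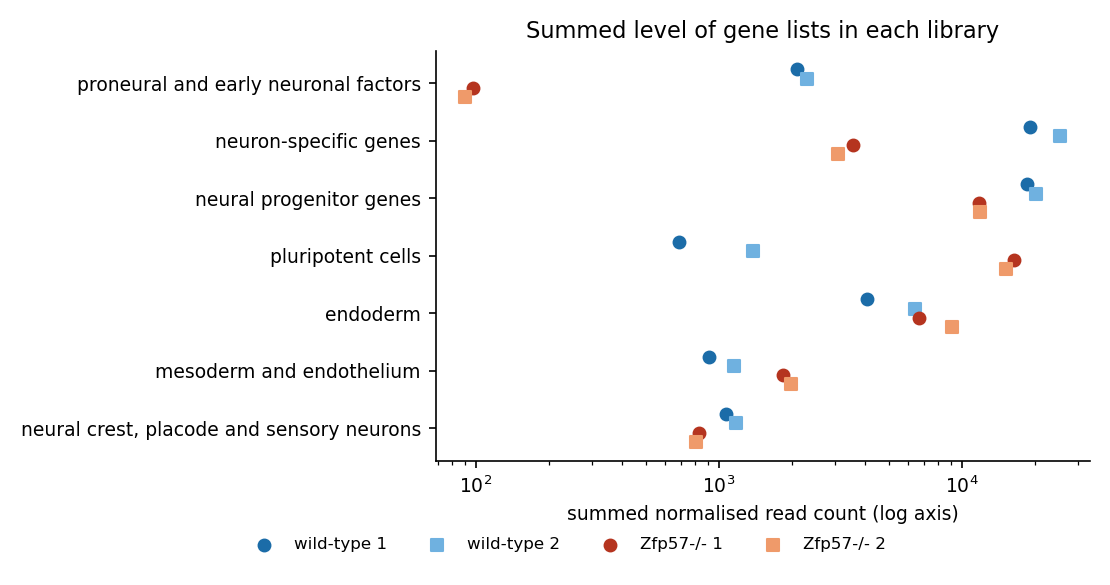
Summed normalised read count on a log axis for the 7 factors and 6 marker lists, with 1 point for each of the 2 wild-type and 2 Zfp57-/- libraries. The sum of the 7 factors goes from 2100 and 2296 down to 97.0 and 90.4, the pluripotency sum goes from 684 and 1375 up to 16389 and 15109, and the neuron-specific sum goes from 19017 and 25297 down to 3575 and 3094.

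The genes whose pattern over the 4 libraries was most like the mean profile of the 7 factors were Plppr1, Elavl4, Scg2, Astn1 and Unc79, with root mean square differences of 0.0975 to 0.115 in centred log2 CPM. Elavl4, a neuronal RNA-binding protein, had 1027 and 1297 counts in the wild-type libraries and 78 and 59 in Zfp57-/- cells. Dcx, at 0.0934, and Barhl1, at 0.158, were most like Nhlh2, and Barhl1 had 158 and 215 counts in the wild-type libraries and 0 and 0 in Zfp57-/- cells. Scrt1, at 0.0819, and Pou3f4, at 0.0915, were most like Neurog2. The likeness rests on 4 libraries and mainly on the genotype difference.

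Reads that cover a strain difference were used to ask whether both parental alleles of the factors were expressed and lowered. In wild-type cells 4 of the 7 genes had enough such reads to give a ratio. Nhlh2 had 178 JF1 and 205 B6 reads in wild-type replicate 1 and 284 and 265 in replicate 2, a JF1 share of 0.491 ± 0.0372 (mean ± SD, n = 2, Wilson 95% interval of the pooled reads 0.464 to 0.528). Neurod4 had 48 and 47, then 88 and 78 reads, a share of 0.518 ± 0.0176 (0.461 to 0.581). Both genes were thus read from the 2 parental alleles at nearly equal counts.

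Neurog1 had 30 JF1 and 36 B6 reads in replicate 1 and 45 and 52 in replicate 2, a JF1 share of 0.459 ± 0.00663 (Wilson interval 0.385 to 0.537). Neurog2 had 25 and 17, then 45 and 42, a share of 0.556 ± 0.0552 (0.457 to 0.626). The interval included equal shares for each of these 4 genes. Neurod1 had 1 JF1 and 6 B6 reads in all, Nhlh1 had 1 and 0 and Insm1 had 0 and 0, so that no JF1 share is given for Nhlh1 and Insm1, and that of Neurod1 rests on 7 reads (Wilson interval 0.0257 to 0.513).

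In the edgeR test of JF1 against B6 reads in wild-type cells, 5 members passed the minimum of 10 allelic reads and 0 of them were called, where 17.6% of 15141 autosomal genes were called. The number at an unadjusted p under 0.05 was also 0, and DESeq2 called 0. The log2 ratio of JF1 over B6 was -0.04 for Nhlh2 (interval -0.31 to 0.24), 0.11 for Neurod4 (-0.38 to 0.61), -0.23 for Neurog1 (-0.88 to 0.41) and 0.28 for Neurog2 (-0.47 to 1.03). For Neurod1 it was -2.62, with a wide interval of -6.64 to 1.40. Nearest genes had median JF1 shares of 0.413 to 0.508 in wild-type cells, over 15 neighbours of each member.

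**Figure D5:**
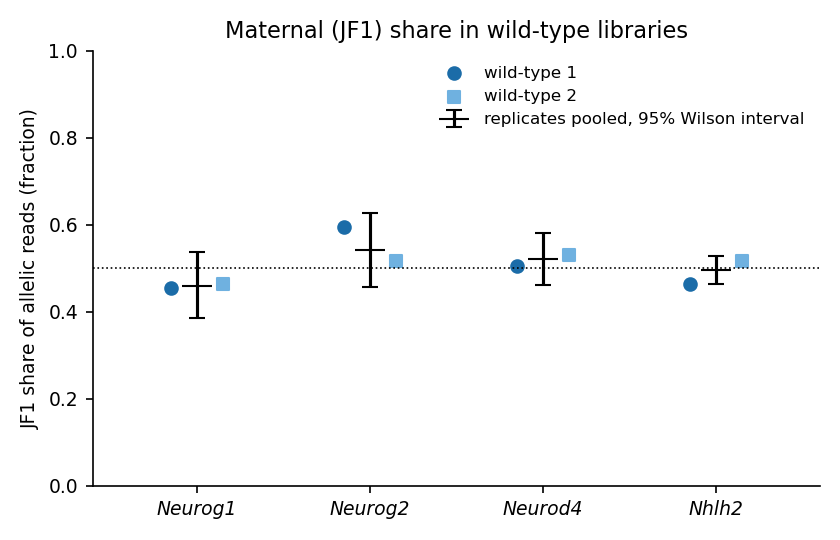
Share of allelic reads from the JF1 (maternal) allele in the 2 wild-type libraries (points) for the 4 genes with over 100 allelic reads in wild-type cells, with the share of the pooled reads and its 95% Wilson interval, which covers counting error only. Points lie between 0.455 and 0.595, and every interval crosses the dotted line at equal shares.

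Both alleles of these 4 genes were lower in Zfp57-/- cells. For Nhlh2 the allelic reads in Zfp57-/- replicates 1 and 2 were 2 and 2 from JF1 and 2 and 4 from B6. The log2 difference of their normalised means from wild-type was -6.87 for JF1 and -6.34 for B6. Neurod4 kept 5 and 8 JF1 and 8 and 9 B6 reads, with log2 differences of -3.40 and -2.90. For Neurog1 4 reads and for Neurog2 2 reads were left over both alleles, too few to compare alleles in Zfp57-/- cells. No member was called in the genotype-by-allele contrast, 0 at an unadjusted p under 0.05 and 0 by DESeq2, where 10.6% of all genes tested were called. The interval of that contrast was -2.41 to 1.32 on the log2 scale for Nhlh2 and -1.75 to 0.74 for Neurod4. These wide intervals leave room for a difference between the alleles.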

How the data were processed

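Total RNA of 2 wild-type and 2 Zfp57-/- day 12 cultures was sequenced as stranded read pairs after removal of ribosomal RNA. Per the file headers and the study's methods, the authors trimmed reads (Trimmomatic 0.36), kept unique alignments to GRCm38 with at most 3 mismatches (STAR 2.5.4a), and deposited whole-number counts of fragments per GENCODE vM20 gene on the matching strand (Subread featureCounts 1.6.0). A second deposited table gives counts of fragments assigned to the JF1 or B6 allele, which come to 36.1% to 37% of the bulk counts. Because counting used strand, antisense genes were counted apart. The alleles are seen only in genes with strain differences in their exons.

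Here, 19995 genes with more than 8 counts summed over all libraries entered the genotype comparison by edgeR 4.0.16 (robust quasi-likelihood test, TMM scaling, Benjamini-Hochberg adjustment, R 4.3.3), without a pair term. Alleles were compared in 1 edgeR fit over 15141 autosomal genes with at least 10 allelic reads, which held library terms and, in each genotype, an allele effect. Wilson intervals cover counting error only, and so do floors of 3 counts. On simulated data for the genotype comparison, 92.5% of 200 altered genes were recovered, with 9 false calls among 19483 genes. The simulation altered far fewer genes than the 5522 called in the real data, so that these rates may not carry over. DESeq2 1.42.0 and other settings were alternatives. The replicates are described as biological duplicates. The p-values weigh a difference against the spread between these cultures, and they do not cover the spread between lines or clones.

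Gene symbols came from GENCODE vM21, matched on 53859 IDs with and 862 without the version, and 881 IDs had none. The members, gene lists and motifs were chosen with earlier results of these data known. Named were all members, the called genes with the 2 largest and 2 smallest log2 fold changes of each list, all genes of lists of at most 7, genes whose call bears on the text, and the genes most like in pattern. The day 0 cells were not analysed here. Some listed genes enter the counts of their lists but are not reported singly here.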

Additional observations from a re-analysis of the deposited data

How the results depend on the processing

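The 6 member calls kept their direction and passed the threshold in each of the 11 alternatives to the genotype test, and at an adjusted p of 0.01. Log2 fold changes ranged from -7.32 to -6.44 for Nhlh2 and from -3.75 to -2.88 for Neurod4. Neurod1 stayed lower but was called only without wild-type replicate 2, with leave-one-out values of -1.64 to -0.71 (adjusted p 0.000789 to 0.429 over the alternatives). The number of all genes called was 5522, and it was 3480 with Actb as the scale, 2902 at an adjusted p of 0.01, and 2756 to 10004 with 1 library left out (lowest without Zfp57-/- replicate 1, highest without wild-type replicate 2). Leaving out a library leaves 1 sample alone in its genotype, which is assumed to vary like the other genotype. With Actb as the scale the median log2 fold change of all genes was -0.68 and 14% of the calls were higher, against 47.2% with TMM. Relative to that median, Neurod1 was at -1.38.

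The replicate numbers in the labels are shared between genotypes, but deviations of same-numbered libraries correlated at only 0.139 over 11736 genes, and no source ties them to a shared day or batch. With the replicate block 6984 genes were called, of the members again 6. The number of endoderm genes called higher went from 1 to 5 with the block, 4 without a filter on low counts and 0 with Actb. Depth limits the allelic comparison, where Zfp57-/- cells had at most 6 reads per allele for any member except Neurod4 (13 and 17). Nhlh1 and Insm1 could not be compared by allele, and Neurod1 had 7 allelic reads in wild-type cells.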
